A study of Mus musculus with 5 samples.

Results

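The miR-378 family is a group of small RNAs that share most of their mature sequence, and all miRNA probes whose name starts with mmu-miR-378 were taken as its members. This gave 5 of the 1900 mouse miRNAs on the array, namely mmu-miR-378a-3p, mmu-miR-378a-5p, mmu-miR-378b, mmu-miR-378c and mmu-miR-378d, and the same 5 were found in the authors' processed table. Total RNA came from back skin of female mice whose hair follicles were resting (telogen), and aged mice were 2 years old while young mice were 8 weeks old. In aged mice, unwounded skin (D0) and skin taken 3, 5 and 7 days after a 3 mm punch wound (D3, D5 and D7) were profiled, and in young mice unwounded skin alone. Each of these 5 conditions was hybridised to 1 array with a single dye, so there are no replicates, and no test or p-value is given for any difference. How many animals stood behind an array, and their strain, are not given in the sources used here.

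A mature miRNA guides Argonaute proteins to messenger RNAs that match its seed, a short stretch near its 5′ end, and lowers their translation or stability. Both arms of the miR-378a hairpin come from an intron of Ppargc1b, the gene of the transcriptional coactivator PGC-1β, and miR-378a is known for its abundance in skeletal muscle, heart and adipose tissue and for its part in energy metabolism. The 3p arm is the main product of that hairpin, and the 5p arm is its partner strand with a seed of its own. Skin taken with a punch holds the epidermis, hair follicles and dermis, and in mice the fat layer and the thin muscle sheet beneath it (panniculus carnosus), so that its RNA is a mixture of many cell types.

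The mature sequences of miR-378b, miR-378c and miR-378d are shown because their near identity bears on how the probes can be read. They were taken from RefSeq with the GRCm38.p6 assembly and are written 5′ to 3′, with bases 2 to 8, the seed, in capitals.
miR-378b: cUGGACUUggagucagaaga
miR-378c: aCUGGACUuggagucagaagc
miR-378d: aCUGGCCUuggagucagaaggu
Each of these 3 equals the target sequence that the array lists for its probe, and the sequences of both miR-378a arms are not printed here. miR-378b lies at chr11:88352839-88352858 on the plus strand, in a hairpin inside the span of the protein-coding gene Msi2. miR-378c lies at chr14:46954905-46954925 on the minus strand, inside the spans of the protein-coding gene Samd4 and of the long non-coding RNA Gm52120. miR-378d lies at chr10:126710355-126710376 on the minus strand, where the gene table lists no overlapping gene.

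Counted from the 5′ end of miR-378c, miR-378d differs from it by A6C, which falls in the seed, and by C21G. miR-378b starts 1 base later than the other two, so its seed is read in another frame, and counted from its own 5′ end it differs from miR-378c by A20C and from miR-378d by A5C and A20G. miR-378a-3p is identical to miR-378c at 20 of 21 aligned bases, to miR-378d at 20 of 21 and to miR-378b at 19 of 20. Of the 1900 miRNAs on the array, miR-378a-3p and miR-378c have the same seed, whereas the seeds of miR-378b, miR-378d and miR-378a-5p are each found in that miRNA alone. miR-378a-5p is a different sequence, identical to the other members at only 8 or 9 bases. Outside the family the closest array target had 15 identical bases, found between miR-378b and miR-345-3p. How much of the signal of miR-378a-3p, miR-378b, miR-378c and miR-378d comes from hybridisation of one of these RNAs to another's probe cannot be told apart on these arrays, so the 4 probes are not independent measurements.

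All 5 members were above the detection level on all 5 arrays, which is the 95th percentile of the 4 empty spots of that array (105, 58.3, 61.1, 99.0 and 107 units of scanned intensity at aged D0, D3, D5, D7 and young D0). They were also bright, meaning above 2 times that level, on all 5 arrays, which held for 199 of the 1900 miRNAs. The number of detected miRNAs ranged from 589 at aged D0 to 1768 at aged D3, so the arrays differ in how much of their dim signal lies above the empty spots.

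Mean scanned intensity of miR-378a-3p over its 2 spots was 2923 in unwounded aged skin, 666, 903 and 1258 in the aged wounds of D3, D5 and D7, and 4901 in unwounded young skin. The unwounded arrays were therefore the brightest, and all 3 wound arrays lay below both of them. Among the 1900 miRNAs it ranked 39 by brightness in aged D0, 107, 80 and 94 in the wounds of D3, D5 and D7, and 54 in young D0.

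The other arm of the same hairpin, miR-378a-5p, was the dimmest member, with 280, 120, 159, 202 and 386 units in the same order of arrays. Those values are 2.66, 2.06, 2.61, 2.04 and 3.60 times the detection level, against 27.7, 11.4, 14.8, 12.7 and 45.7 times for miR-378a-3p. The order of the 5 arrays was the same for both arms in scanned intensity. miR-378a-5p thus lay much nearer to background than its partner on every array.

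The 3 probes nearest to miR-378a-3p in sequence gave the same order of arrays. Scanned intensity of miR-378b was 2034, 456, 697, 1004 and 3783 units. miR-378c had 2235, 503, 741, 1050 and 3875 units, and miR-378d, whose seed differs by A6C, had 1622, 399, 613, 937 and 3601 units. For every member the 3 wound arrays lay below both unwounded arrays, and D3 was the lowest.

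**Figure D1:**
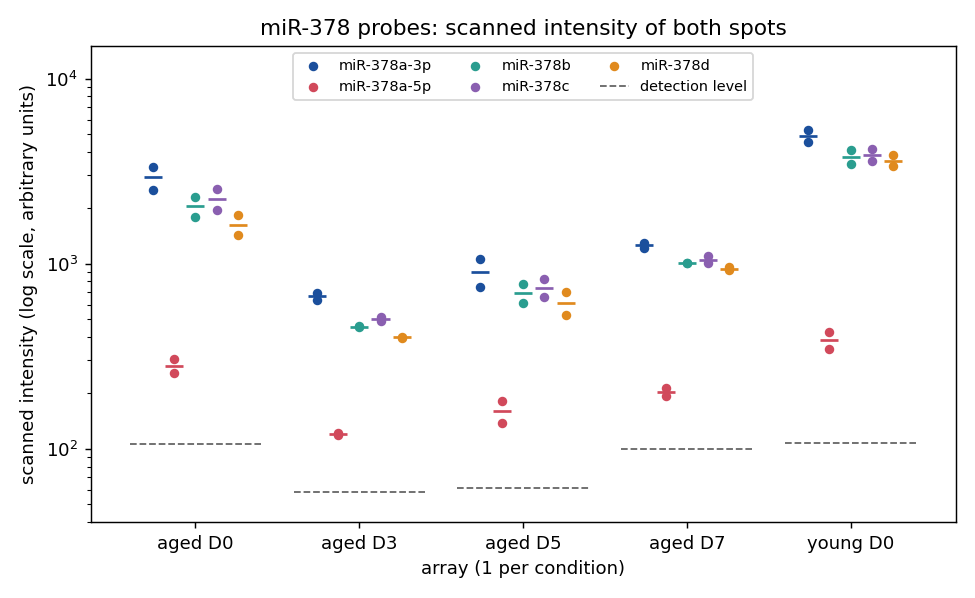
Scanned intensity (log scale, arbitrary units) of the 5 miR-378 probes on each of the 5 arrays, with 1 point per spot, a bar at the mean of the 2 spots and a dashed line at the detection level of the array. All members are lowest at aged D3 and highest in young D0, and miR-378a-5p lies nearest to the detection level, between 2.04 and 3.60 times it.

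The 5 probes sit next to each other in both of their blocks, in rows 4 to 8 of column 7 and in rows 68 to 72 of column 22. The first spot was brighter than the second by 1.19 to 1.33 times at aged D0, by 1.25 to 1.40 times at D5 and by 1.15 to 1.24 times in young D0, whereas the ratio lay between 0.977 and 1.09 at D3 and between 1.004 and 1.103 at D7. The members thus lie side by side on the array as well as in sequence, and ratios to aged D0 are given for both spots below.

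After background correction and quantile normalization over the 5 arrays, miR-378a-3p had a value of 3172 in unwounded aged skin, 871, 1462 and 1115 in the wounds of D3, D5 and D7, and 2210 in unwounded young skin. The value of miR-378a-5p was 384, 142, 220, 163 and 214. On this scale miR-378b had 2304, 535, 1103, 879 and 1754, miR-378c had 2479, 627, 1183, 924 and 1811, and miR-378d had 1830, 467, 963, 791 and 1623. Aged D0 replaced young D0 as the highest array for all 5 members, while D3 remained the lowest. The authors' processed values, normalized by a method that the sources used here do not name, were 2894, 933, 1353, 1057 and 2041 for miR-378a-3p and 282, 69.4, 136, 85.4 and 148 for miR-378a-5p, and also put aged D0 highest and D3 lowest.

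The comparison of aged wounds with aged unwounded skin asks how the family changes during repair. At D3 all 5 members were at least 2-fold below aged D0. The ratio D3/D0 of normalized values was 0.275 for miR-378a-3p (0.263 from the first spot and 0.287 from the second). It was 0.371 for miR-378a-5p (0.339 and 0.408), 0.232 for miR-378b (0.202 and 0.267), 0.253 for miR-378c (0.222 and 0.288) and 0.255 for miR-378d (0.235 and 0.277). Without any correction the scanned ratios were 0.224 to 0.428, and in the authors' processed values they were 0.246 to 0.322. miR-378a-5p had the highest of the scanned ratios but the lowest of the authors' ratios, so its place among the members depends on the processing. The SD of a log2 ratio averaged over 2 spots, estimated from the differences between repeat spots of the bright miRNAs, was 0.14 in this comparison. It describes the array and not the spread between animals, and the scatter of single spots is larger. In bulk tissue, fewer cells of a type and less RNA per cell cannot be told apart.

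Among all 1772 miRNAs detected on at least 1 of these arrays, 2.65% were at least 2-fold lower at D3. Most of those 1772 are dim whereas all 5 members are bright, so the bright miRNAs are the closer background for the family. Of 207 miRNAs bright on both arrays, 41 or 19.8% were at least 2-fold lower, the 5 members included. Of the 202 bright miRNAs outside the family 36 or 17.8% were at least 2-fold lower, and 2 to 17 of them had a lower ratio than a given miR-378 member. The fewest stood below miR-378b and the most below miR-378a-5p. The median ratio of the 202 was 0.786, and relative to it the members stood at 0.296 to 0.473.

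At D5 the family was closer to its unwounded level. The ratio D5/D0 was 0.461 for miR-378a-3p (0.485 and 0.438 from the 2 spots), 0.479 for miR-378b (0.488 and 0.470) and 0.477 for miR-378c (0.470 and 0.485), which are the 3 members at least 2-fold lower. miR-378d lay just inside 2-fold at 0.527 (0.557 and 0.497), and miR-378a-5p had 0.575 (0.605 and 0.546). With the authors' processed values or with spike scaling all 5 members were at least 2-fold lower at D5. Of the 1079 miRNAs detected on at least 1 of these arrays 2.41% were at least 2-fold lower, and of the 204 bright on both, members included, 9.8% were. Between 14 and 29 of the 199 bright miRNAs outside the family had a lower ratio than a member.

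At D7 all 5 members were again at least 2-fold below aged D0. miR-378a-3p had a D7/D0 ratio of 0.351 (0.329 and 0.376), miR-378b 0.382 (0.330 and 0.442), miR-378c 0.373 (0.332 and 0.418), miR-378d 0.432 (0.406 and 0.461) and miR-378a-5p 0.425 (0.414 and 0.436). The share of miRNAs at least 2-fold lower was 1.79% of the 1565 detected on at least 1 array and 10.3% of the 203 bright on both, members included, and 8.08% of the 198 outside the family. Between 2 and 6 of those 198 lay below a member, and relative to their median of 0.909 the members stood at 0.387 to 0.476. The SD of the log2 ratio averaged over 2 spots, estimated from repeat spots as at D3, was larger here at 0.25. Without normalization between arrays 3 of the 5 members were at least 2-fold lower at D7, with spike scaling 3, with median scaling 2 and with 5S scaling 0, so the count at D7 depends on the scaling.

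**Figure D2:**
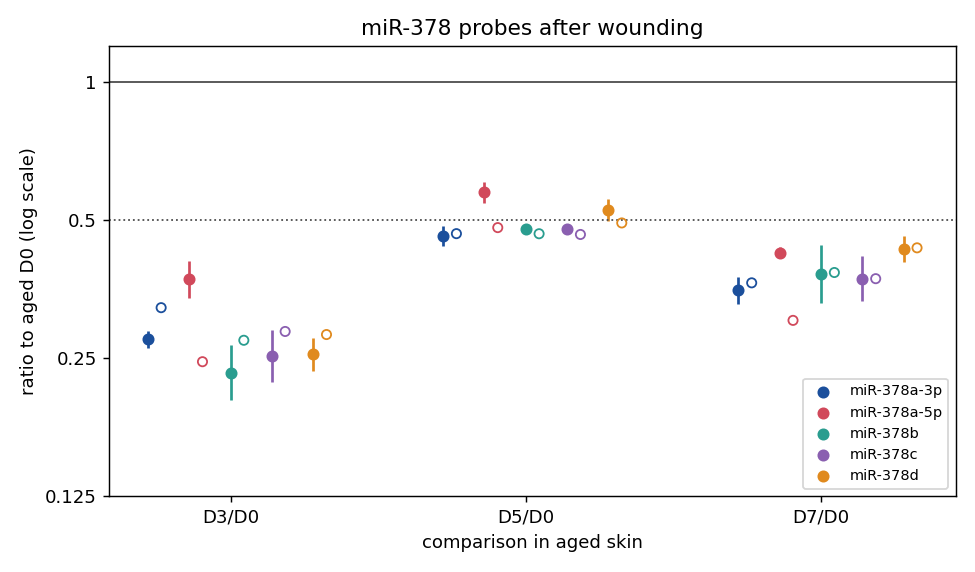
Ratio to aged D0 (log scale) of each miR-378 probe at D3, D5 and D7, with a filled point for quantile-normalized values, a line between the ratios of its 2 spots and an open circle for the authors' processed values. All ratios lie below 1, D3 is the lowest comparison, and at D5 miR-378a-5p and miR-378d stand above the dotted line at 0.5.

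From D3 to D5 every member was higher, by 1.55 to 2.06 times with a median of 1.89 (1.79 to 2.41 from the first spot and 1.34 to 1.79 from the second), and the direction was the same under every alternative setting for which it was computed. D5 and D7 have no settled order. The D7/D5 ratio was 0.739 to 0.821 after quantile normalization (0.676 to 0.728 from the first spot and 0.799 to 0.939 from the second), but 1.098 to 1.49 without normalization between arrays, 1.49 to 2.02 after scaling to the spike calibration controls and 1.35 to 1.84 after scaling to the 5S ribosomal RNA probes. Under the reported setting and all 14 alternatives, each member lay below aged D0 at D3, D5 and D7 and had its lowest wound ratio at D3.

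**Figure D3:**
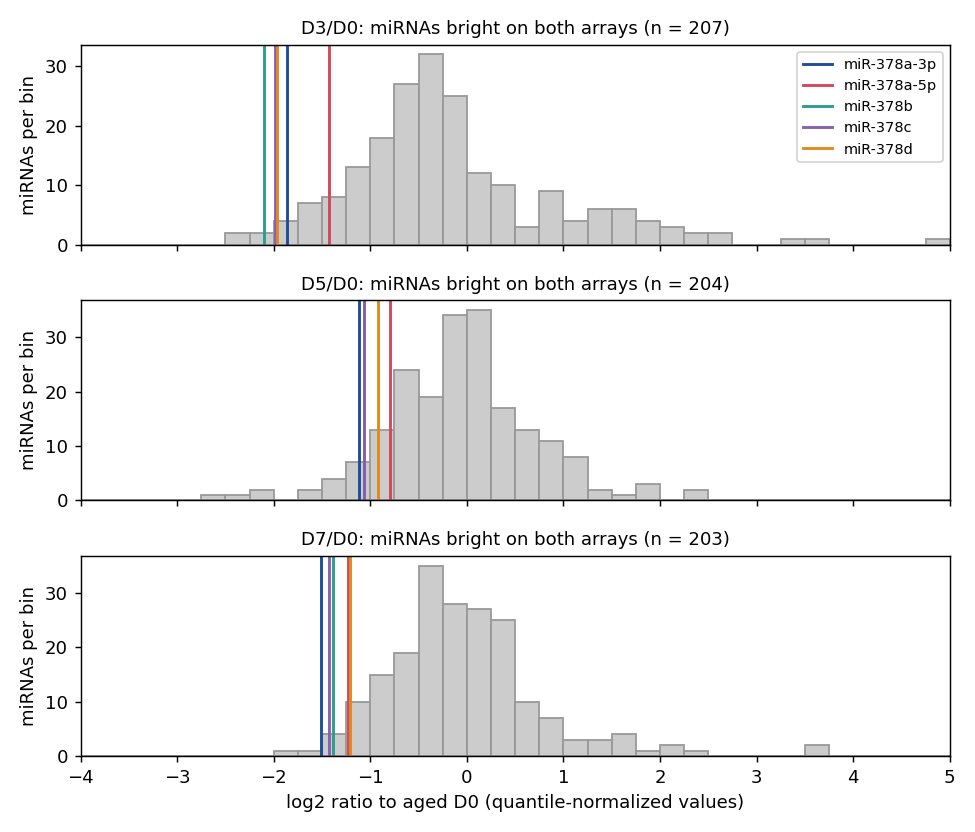
Number of miRNAs per bin of log2 ratio to aged D0 (quantile-normalized values) at D3, D5 and D7 among miRNAs bright on both arrays, with a coloured line at each miR-378 member (at D5 the lines of miR-378b and miR-378c coincide). The members stand in the lower tail of each panel. The bars leave the members out, while the n above each panel includes them. Outside the family, 2 to 17 of 202 bright miRNAs lay below a member at D3, 14 to 29 of 199 at D5 and 2 to 6 of 198 at D7.

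The comparison of unwounded skin asks whether the family differs with age, and here the direction depended on the scaling. After quantile normalization the ratio of aged D0 over young D0 was 1.43 for miR-378a-3p (1.53 and 1.35 from the 2 spots), 1.80 for miR-378a-5p (1.79 and 1.80), 1.31 for miR-378b (1.39 and 1.24), 1.37 for miR-378c (1.46 and 1.29) and 1.13 for miR-378d (1.13 and 1.12). No member was 2-fold higher or lower. In scanned intensity the same ratios were all below 1, from 0.451 for miR-378d to 0.726 for miR-378a-5p. Scaling to the spike calibration controls gave 0.560 to 0.922, scaling to the 5S probes 0.452 to 0.745 and scaling to the median of all miRNA probes 0.414 to 0.681, whereas the authors' processed values gave 1.17 to 1.90 and scaling to the 75th percentile 1.51 to 2.49.

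Scaling by a single factor per array moves all miRNAs together, which quantile normalization and the authors' processing need not do. The family was therefore also set against all bright miRNAs, its own members included. Their median aged over young ratio was 1.16 after quantile normalization and 0.462 without normalization between arrays, and relative to it the members stood at 0.975 to 1.55 and at 0.972 to 1.601. Under both, miR-378a-5p stood highest and miR-378d nearest to the median. Among the 205 miRNAs outside the family that were bright on both arrays, 98 lay below miR-378d and 181 below miR-378a-5p, so that the members are spread from near the middle of the distribution to its upper part. At least 2-fold lower were 6.03% of the 779 miRNAs detected on at least 1 of these arrays and 8.1% of the 210 bright on both, and at least 2-fold higher were 2.31% and 7.62%.

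**Figure D4:**
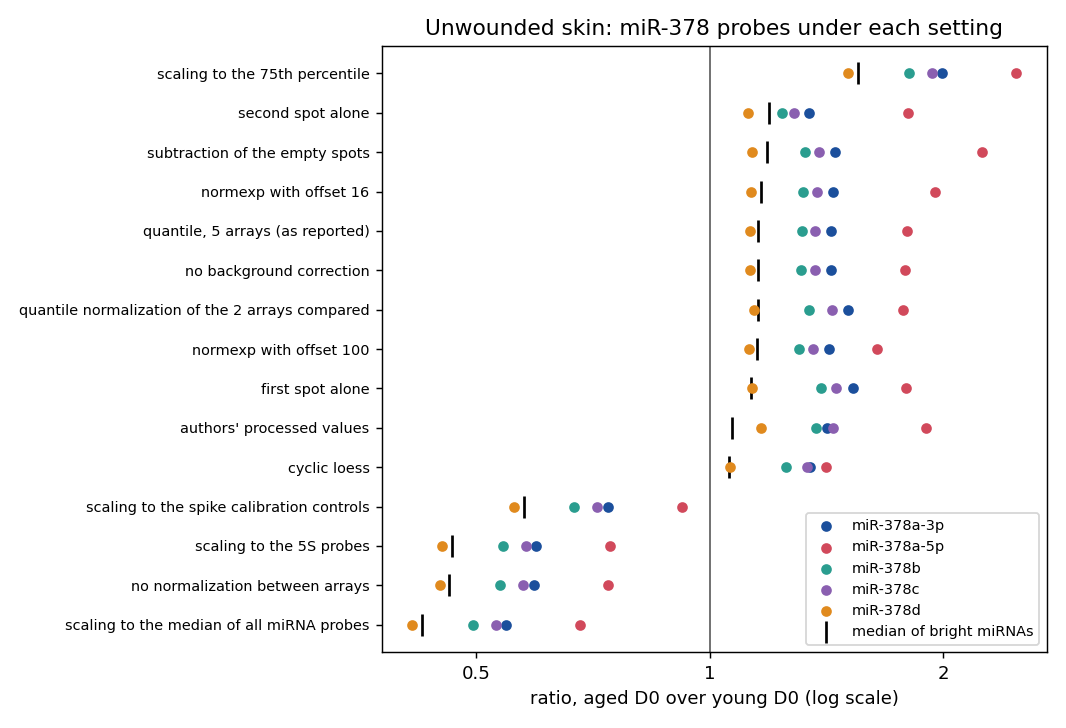
Ratio of aged D0 over young D0 (log scale) of the 5 miR-378 probes under the reported setting and each of 14 alternatives, with a black tick at the median ratio of the bright miRNAs. The points move with the tick from 0.414 to 2.49 and cross 1 together, while their order stays with miR-378d lowest and miR-378a-5p highest.

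Within an array the near-identical probes kept close proportions. As a share of the normalized value of miR-378a-3p, miR-378b ranged from 0.614 to 0.793 over the 5 arrays, miR-378c from 0.720 to 0.829 and miR-378d from 0.536 to 0.734. On this scale the lowest share of each of the 3 was at aged D3. miR-378a-5p ranged from 0.0966 in young D0 to 0.164 at aged D3. In the authors' processed values it ranged from 0.0727 in young D0 to 0.101 at aged D5. Aged D3 was near the low end there at 0.0744, so its place depends on the processing. Probes of different sequence bind with different strength, so these shares say how the probes move together and not how much of each RNA is present.

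The members have a GC content of 50 to 59.1%. Among the miRNAs bright at both D3 and aged D0, 44.4% had a lower GC content than miR-378b and 70.5% a lower one than miR-378a-5p. Bright miRNAs within 5 percentage points of a member's GC content numbered 44 to 74 at D3, with a median ratio of 0.731 to 0.844, and 1 to 4 of them had a lower ratio than that member.

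Of 198 other miRNAs bright on all 5 arrays, those with the pattern most like miR-378a-3p were miR-378c, miR-378b and miR-378d, at distances of 0.17, 0.30 and 0.51. The distance is Euclidean over 4 log2 ratios, D3/D0, D5/D0, D7/D0 and aged over young. miR-708-5p came next at 0.66, followed by miR-378a-5p at 0.69. Further on came miR-133a-3p, a muscle miRNA, at 0.74, miR-151-5p at 0.76, miR-183-5p, known from sensory organs, at 0.77, and miR-143-3p, known from smooth muscle and also on the adipocyte list below, at 0.82. miR-708-5p had ratios of 0.243 at D3, 0.357 at D5, 0.290 at D7 and 1.93 with age. Those of miR-133a-3p after wounding were 0.342, 0.520 and 0.458. In the authors' processed values 3 of these 5 miRNAs outside the family were again among the nearest 5, namely miR-133a-3p, miR-151-5p and miR-143-3p. These 4 ratios share the aged D0 array, and the likeness is a description.

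Lists of miRNAs known from cell types of skin were set beside the family, since miR-378a is abundant in muscle and fat. Of the 8 skeletal muscle miRNAs 7 were detected at D3 or D0, and 5 were at least 2-fold lower at D3, with a median ratio of 0.342 over the 7. miR-1a-3p had a D3/D0 ratio of 0.253, miR-133a-3p 0.342, miR-133b-3p 0.343 and miR-206-3p 0.190, all low as in the miR-378 family. miR-133b-5p went the other way at 2.09, miR-499-5p, at 0.978, was detected at D3 and D7 only, and miR-208b-3p was detected on no array. The summed scanned intensity of the muscle list was 35240 in unwounded aged skin, 10542, 7947 and 42035 in the wounds of D3, D5 and D7, and 102158 in unwounded young skin. miR-133b-5p alone gave 26218 of the sum at D7 and 36276 of that in young D0. Here and below, the sums are of scanned values without normalization between arrays, so differences in array brightness enter them.

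At D5 the muscle list had a median ratio of 0.428, with miR-1a-3p at 0.170, miR-133a-3p at 0.520, miR-133b-3p at 0.521 and miR-206-3p at 0.505. At D7 it had 0.534, with miR-1a-3p at 0.534, miR-133a-3p at 0.458, miR-133b-3p at 0.498 and miR-206-3p at 0.716, against 0.351 to 0.432 in the family. Of the rest of the list, miR-133a-5p stood at 0.327 and miR-133b-5p at 12.8 at D7. With age the median of the muscle list was 0.956, against 1.13 to 1.80 for the family.

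The adipocyte list had 3 of 8 detected miRNAs at least 2-fold lower at D3 and a median ratio of 0.674, with 0.761 at D5 and 0.805 at D7. Of these 8, miR-455-5p and miR-196a-5p were not detected at aged D0. Over the 5 adipocyte miRNAs bright on both arrays the median was 0.470 at D3, with 3 at least 2-fold lower, 0.761 at D5 and 0.715 at D7. The summed scanned intensity of the list was 9487, 4091, 4251 and 8280 at aged D0, D3, D5 and D7, and 19032 in young D0. The epithelial list, miR-200 members with miR-203-3p and miR-205-5p, had 5 of 7 at least 2-fold lower at D3 and a median of 0.428, then 0.536 at D5 and 0.571 at D7. Its miR-200c-3p went the other way at D3, with a ratio of 2.10. Its sums were 38489, 16244, 17340, 27476 and 46538 in the same order.

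Of the 5 leukocyte miRNAs, 3 were at least 2-fold higher than at aged D0 at D3, 3 at D5 and 4 at D7, with medians of 2.92, 2.01 and 4.39, while miR-150-5p had a D3/D0 ratio of 0.743. At least 2-fold higher among miRNAs detected on at least 1 array were 3.44% at D3, 2.87% at D5 and 2.56% at D7, and among those bright on both arrays 14.5%, 7.84% and 7.88%. Among them miR-142a-3p was not detected at aged D0, and its measured value entered the medians. Their scanned sums were 901 in unwounded aged skin, 4071, 2389 and 4172 in the 3 wounds, and 5829 in unwounded young skin. The quantile-normalized values of the 5 add up to less in young D0 than in any of the 3 wounds, the reverse of that order. The fibroblast list had a median of 0.743 at D3, 1.21 at D5 and 2.53 at D7 with scanned sums of 7905, 4997, 7403, 19392 and 19835. Its quantile-normalized values add up to less in young D0 than at D7, where the scanned sums are nearly equal. The 4 erythroid miRNAs had medians over those detected of 0.746 at D3 (4 miRNAs), 0.646 at D5 (2) and 0.320 at D7 (2), with sums of 2118, 1042, 1339, 1274 and 2571. Among them miR-486a-5p had ratios of 0.236, 0.450 and 0.233, close to those of the family at D3 and D5 and below it at D7, but stood at 2.00 with age. At D3 the medians of the muscle, adipocyte, epithelial, erythroid and fibroblast lists all lay below 1 and below the 0.781 of all bright miRNAs. Over the detected miRNAs, those of the muscle and epithelial lists came nearest to the family. The erythroid miR-144-3p and miR-144-5p, at 0.925 and 0.949, were not detected at aged D0. Over list members bright on both arrays, the D3 medians were 0.342 for muscle, 0.377 for erythroid (2 miRNAs), 0.428 for epithelial, 0.470 for adipocyte and 0.743 for fibroblast. The part of any list in the ratios of the family was not tested.

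**Figure D5:**
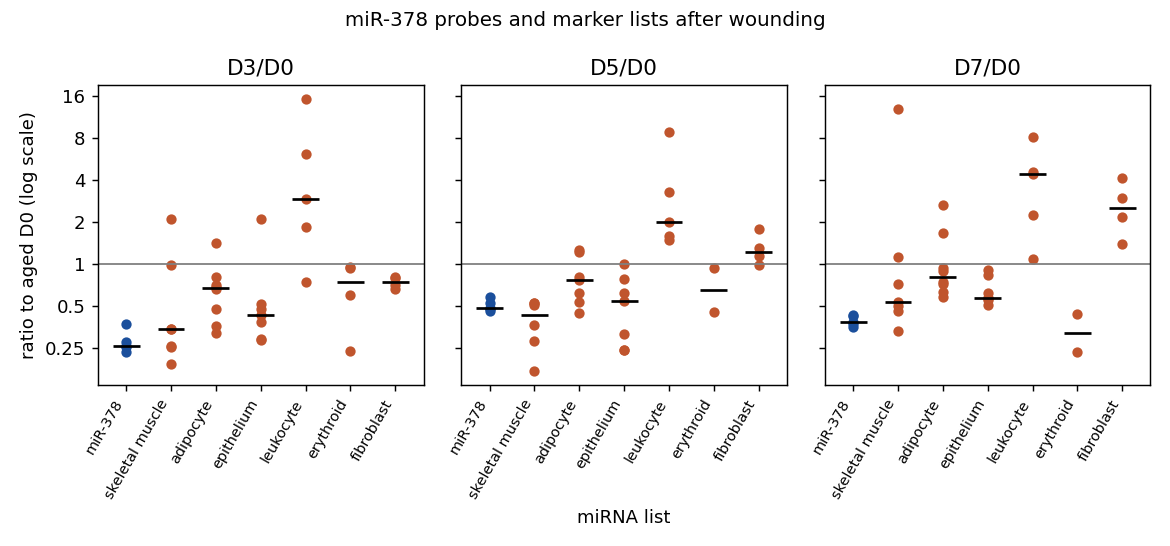
Ratio to aged D0 (log scale) at D3, D5 and D7 of the miR-378 probes (blue) and of the detected miRNAs of 6 lists (orange), with a bar at the median of each (taken on the log2 scale). Among these medians over detected miRNAs, those of muscle and epithelium (0.342 and 0.428) come nearest to the family at D3. At D7 the family lies below the medians of the muscle, adipocyte, epithelial, leukocyte and fibroblast lists and above the erythroid median of 0.320.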

How the data were processed

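Total RNA was labelled and hybridised to single-colour arrays by a service provider. The deposited scanner files give each spot's intensity (linear, background columns empty), and the authors also deposited a table of processed intensity per miRNA whose normalization is not given in the sources used here. No column of a sample without a group was found (0). Background was removed by normexp in limma with an offset of 50, fitted without a local background. After removal of control spots, log2 values were quantile normalized across all 5 arrays, and each miRNA is the mean of its 2 spots. This scaling removes a change shared by all miRNAs. Ratios are linear, and at least 2-fold is the threshold used. With 1 array per condition no test was run, and so few arrays limit the precision.

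The miRNAs named are all miR-378 probes, 6 lists of cell type miRNAs (given by counts, with single values for miR-1a-3p, miR-133a-3p, miR-133b-3p and miR-206-3p) and the 5 miRNAs outside the family whose pattern is most like that of miR-378a-3p. The other list members named were singled out after their values were seen. Members and lists were chosen with earlier results of these data known. The alternatives tried were cyclic loess, no normalization, scaling to the 75th percentile, to the median, to the 11 spike calibration controls or to the 5 probes for 5S, quantile normalization of the arrays compared, offsets of 16 and 100, subtraction of the empty spots with a floor of 1, no background correction, either spot alone, the authors' processed values (those below 1 set to 1), and thresholds of 1.5-fold and 3-fold. Of the 5 members 3 were matched in the RefSeq miRNA table. Normalization used limma 3.58.1 in R 4.3.3, tables were handled with numpy 2.4.6 and pandas 2.3.3 under Python 3.11.15, and figures were drawn by matplotlib 3.10.9. The normalization was tested on simulated data.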

Additional observations from a re-analysis of the deposited data

How the results depend on the processing

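No paired analysis was possible because every condition was measured on 1 array alone. At D3 the count of miR-378 members at least 2-fold lower was 4 with median scaling and with a 3-fold threshold, and 5 under all other alternatives. At D5, where 3 members were at least 2-fold lower, spike scaling, the authors' processed values and a 1.5-fold threshold each gave 5. A 3-fold threshold gave 0, and ratios divided by the bright miRNAs' median gave 1. The count was 4 without normalization between arrays, with 75th percentile scaling, cyclic loess and 5S scaling. It was also 4 with subtraction of the empty spots, quantile normalization of the 2 arrays compared and the second spot alone. At D7, where 5 members were, no normalization between arrays and spike scaling each gave 3, median scaling gave 2, and 5S scaling and a 3-fold threshold each gave 0. With age, no member was 2-fold lower after quantile normalization (0), but 1 was without normalization, 2 with median scaling and 1 with 5S scaling, and the count 2-fold higher went from 0 to 1 with 75th percentile scaling, with subtraction of the empty spots and with a 1.5-fold threshold. The cause of these changes was not tested. The D3/D0 ratio of miR-378a-5p, the member nearest to background, was 0.217 with subtraction of the empty spots, 0.309 with an offset of 16, 0.443 with an offset of 100 and 0.593 with median scaling, against 0.371 as reported. In the authors' processed values it was 0.246, the lowest of the 5 members there. Without a filter on dim probes, the share of all miRNAs at least 2-fold lower was 2.47% at D3, 1.37% at D5 and 1.47% at D7. With 1 array per condition, the spread between animals was not measured, and signal over background limits what can be read from miR-378a-5p.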
